A study of Mus musculus with 18 samples.

Results

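Solute carriers (the SLC and SLCO families) are membrane proteins that move amino acids, sugars, ions, metals, nucleosides and vitamins into cells, out of them and between their compartments. The 150 genes described here are those whose symbol begins with Slc or Slco followed by the family and member numbers and whose level averaged at least 2 TPM, a count of transcripts corrected for length and depth, over the 18 libraries of the series. They were drawn from 356 matching symbols among 21954 genes. Of the other matching symbols, 195 lay under 2 TPM and 11 well-studied carriers, among them Slc2a1, Slc7a11, Slc11a1 and Slc40a1, were set aside by the rule. The mean level over all libraries chose the members, so the levels themselves are given as a description. Just inside the threshold stood Slc25a23 at 2.02 TPM, Slc25a53 at 2.34 TPM and Slc4a8 at 2.35 TPM, and just outside it Slc7a4 at 1.85 TPM, Slc6a12 at 1.77 TPM and Slc18a1 at 1.67 TPM. Of the members, 137 averaged at least 2 in each of the 6 groups and 13 fell under 2 in at least 1 group. A member among the 13 could pass the threshold only because another group was high, so counts are also given for the 137 alone. Of the 13, 6 averaged under 2 TPM once the libraries of 1 treatment were set aside: Slc6a19, Slc4a8 and Slc37a1 without the IFN libraries, and Slc36a2, Slc6a4 and Slc25a23 without the untreated ones. Their differences from that treatment are partly set by the rule, so they are described below with no p. Of the 150 genes, 147 encode carriers. The others share only the start of the symbol: Slc9a3r1 encodes a scaffold protein, Slc4a1ap a nuclear adaptor, and Slc7a6os is a gene on the strand opposite Slc7a6.

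As background, macrophages take in amino acids and glucose through plasma membrane carriers, degrade engulfed material in lysosomes and return the products to the cytosol through lysosomal carriers. Carriers of the SLC25 family, which sit in the inner mitochondrial membrane, exchange ATP, phosphate, amino acids and cofactors between mitochondria and cytosol. Zinc, copper and magnesium carriers set the metal content of the cytosol and of the phagosome, where metals bear on the killing of microbes. Interferons and interleukin-4 (IL4) are the classical cytokines for driving macrophages into different metabolic states.

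The cells were bone marrow derived macrophages of mice. The labels give 2 genotypes, a macrophage knockout of the gene for ribosomal protein L13a (KO) and a control marked as wild type (WT), each with 3 treatments. The 6 groups were KO with IFN, WT with IFN, KO with IL4, WT with IL4, untreated KO and untreated WT, with 3 libraries in each. Libraries carry the number in their titles: 4, 5 and 6 received IFN, 7, 8 and 9 received IL4, and 1, 2 and 3 were untreated, in both genotypes. The labels name the cytokines as those of the M1 and M2 states but give neither the type of interferon nor dose, time, strain, sex, age or the driver of the deletion, and nothing in them says that a group's libraries are separate animals. The p-values therefore measure the spread between these libraries, which may be partly technical. Levels below are the authors' TPM rescaled per library to a common median, written mnTPM. Each change is given as a log2 fold change, its standard error (SE) and a p from edgeR (quasi-likelihood) with Benjamini-Hochberg adjustment over the 12514 genes tested on expected counts. A member is called where the adjusted p is under 0.05. The fit and the mnTPM treat transcript length differently, so the ratio of 2 levels need not equal the fold change beside it.

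Totals ran from 18098711 to 28477342 expected counts per library, and all 150 members passed the filter on low counts. Rpl13a, the gene of L13a, averaged 605 mnTPM in KO against 1116 in WT after IFN, 764 against 1443 after IL4, and 496 against 1467 untreated. It was not called (adjusted p = 0.772 after IFN, 1 after IL4 and 0.256 untreated), and two-sided exact permutation tests over the 3 libraries a group gave p = 0.1, 0.2 and 0.1, where 0.1 is the smallest p that 3 against 3 can give. Lyz2, whose locus carries a widely used myeloid Cre, averaged 3.46 mnTPM in KO against 4893 in WT after IFN, 5.86 against 7550 after IL4 and 6.52 against 16454 untreated, so loss of L13a and loss of Lyz2 cannot be told apart in any comparison of the genotypes. All 8 macrophage markers were present in each group, with sums from 5014 to 8591 mnTPM. Summed fibroblast markers (12 genes, of which 6 to 9 averaged 1 or more, with Lum at 0 in the WT groups and in KO after IL4) were 15.8 to 268 mnTPM in KO and 29.8 to 56.8 in WT after IFN, 63.4 to 354 in KO and 67.1 to 159 in WT after IL4, and 36.8 to 142 in KO and 287 to 326 in WT when untreated. In each group the library numbered 3, 6 or 9 had the highest sum, and the part of these cells in the results below was not tested. In WT after IFN the lead of library 6 over library 4 was slight (56.76 against 56.74 mnTPM). Summed dendritic cell markers (2 of 6 present) were 29.0 to 73.3 mnTPM in KO and 30.4 to 89.6 in WT after IFN, and 3.73 or less in the other groups. Of 5 osteoblast markers, 1 averaged 1 mnTPM or more in each group but untreated WT, where all 5 did. Their sums were 3.80 to 5.43 mnTPM in KO and 1.55 to 6.15 in WT after IFN, 5.31 to 10.2 in KO and 6.10 to 9.23 in WT after IL4, and 5.96 to 6.99 in KO and 9.23 to 39.3 in WT when untreated. Ibsp, Bglap or both were at 0 in every library of each group but untreated WT, and the part of these cells was not tested. Transcripts of Y-linked genes were present in WT libraries 1, 4, 5, 7 and 8, at 70.3 to 116 TPM. They were at 0.69 TPM or less in the other libraries, among them all KO libraries. Their presence thus goes partly with genotype. Each WT group held libraries with and without them, so the libraries of a WT group were not all from 1 animal. In RNA from whole cultures, fewer cells of a type and less RNA per cell cannot be told apart.

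The expressed repertoire was led by carriers of mitochondria and of amino acids. Grouped by family, 35 mitochondrial carriers held 31.7% of the summed TPM of the members and 15 carriers of the amino acid families held 20.4%. The 22 carriers of zinc, copper and magnesium held 10.8%, the 10 of vitamins, choline and heme 8.35%, the 8 of sugars 6.14% and the 9 of lysosomes and vesicles 5.00%. The other classes each held under 5%, and ion exchangers were 16 genes with 4.53%. By level, 15 members reached 100 TPM and 35 stayed under 10 TPM. The highest was the adenine nucleotide exchanger Slc25a5, followed by the mitochondrial phosphate carrier Slc25a3 and by Slc3a2, the heavy chain that brings several amino acid exchangers to the plasma membrane. Their means over the groups ran from 369.7 to 733 mnTPM for Slc25a5, from 468 to 540.3 for Slc25a3 and from 351 to 701 for Slc3a2.

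The repertoire ranged from nearly constant to strongly variable carriers. The ratio of the highest to the lowest group mean had a median of 1.67 over the 150 members. It was at most 1.5 in 60 of them and at least 4 in 15. The steadiest carrier was the zinc carrier Slc39a9, whose 18 libraries lay between 17.4 and 25.2 mnTPM, followed by the riboflavin carrier Slc52a2, between 8.79 and 15.2 mnTPM. At the other end stood Slc6a4, Slc6a19, Slco3a1, Slc4a8 and Slc36a2, with ratios of 94.8, 79.2, 76.2, 55.7 and 34.6. Of these, the low group means of Slc6a4, Slc6a19, Slc4a8 and Slc36a2 were all under 1 mnTPM, and only Slco3a1 reached a group mean above 20 mnTPM. Summed over all members the level was 7654 ± 495 mnTPM in KO and 7427 ± 311 in WT after IFN, 6729 ± 306 in KO and 6699 ± 139 in WT after IL4, and 6826 ± 101 in KO and 6369 ± 85.7 in WT untreated (SD, n = 3 each).

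**Figure D1:**
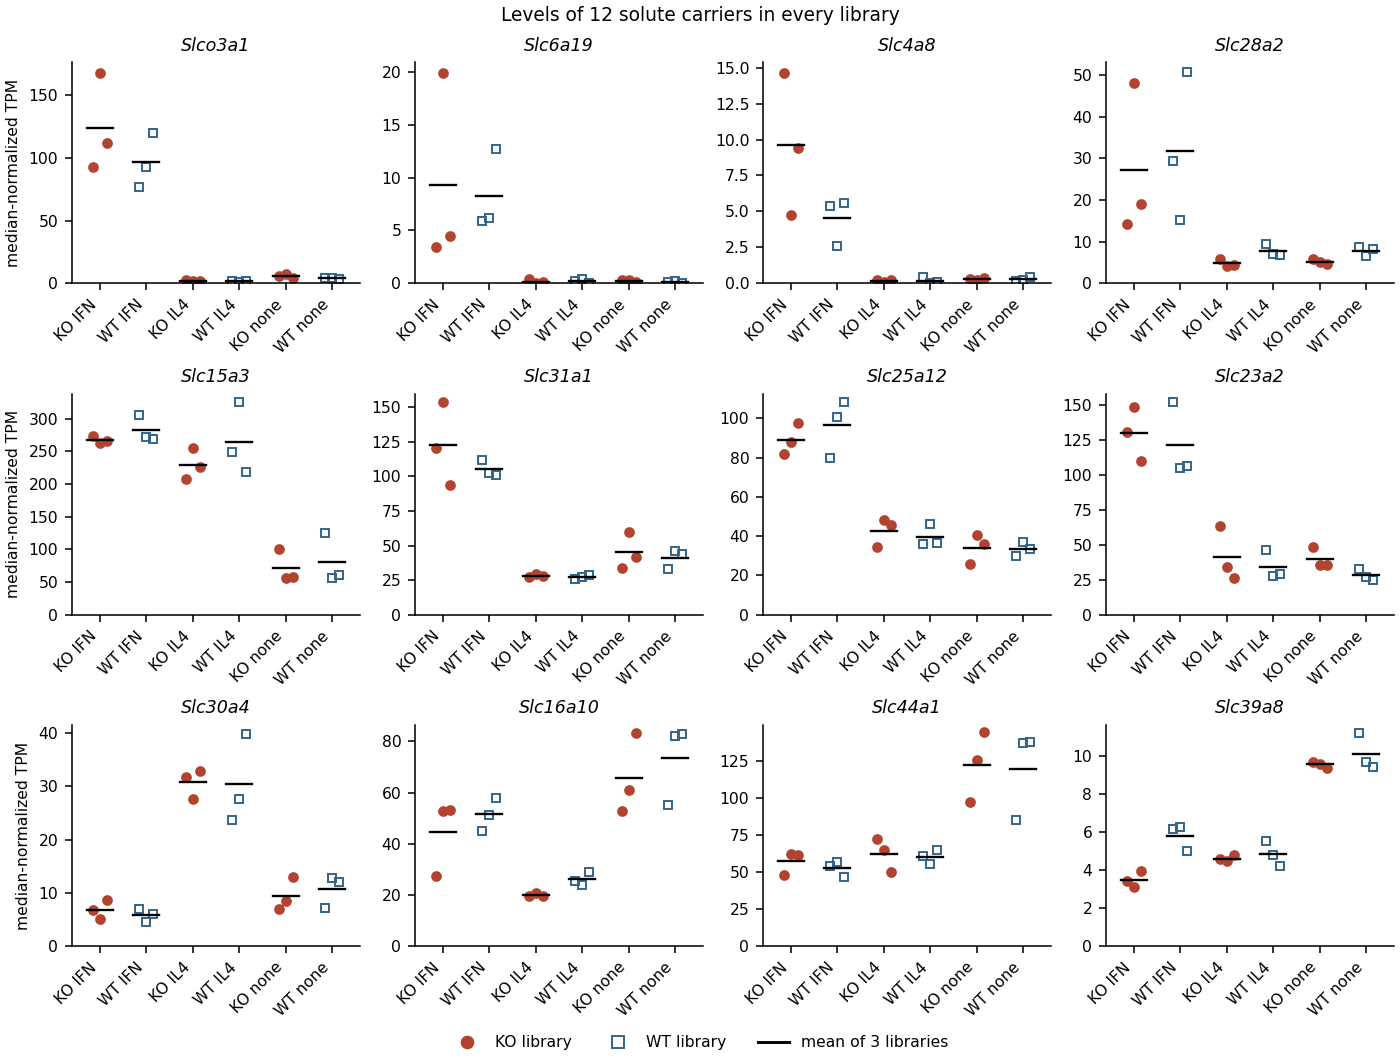
Levels of 12 members in every library (y axis, median-normalized TPM, linear and from 0) in the 6 groups (x axis), with KO as filled circles, WT as open squares and the mean of 3 libraries as a line. Slc6a19 and Slc4a8 were under 0.5 and Slco3a1 low outside the IFN groups, Slc15a3 was high after both cytokines, Slc30a4 was high after IL4, and Slc44a1 was low after both.

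The IFN comparison asked which carriers changed between IFN-treated and untreated macrophages. Slco3a1, Slc31a1, Slc31a2, Slc23a2, Slc15a3, Slc12a7 and Slc25a12 were among those called higher after IFN in both genotypes, and Slc44a1, Slc24a5 and Slc39a8 among those called lower in both. These carry, in that order, organic anions, copper (both Slc31 members), ascorbate, histidine and peptides, potassium with chloride, and aspartate with glutamate, and then choline, calcium, and zinc with manganese. In KO 47 of the 150 members were called, where 21.6% of all genes tested were called. Of these, 27 were higher (12.6% of all genes) and 20 lower (8.93% of all genes). In WT 39 were called, against 18.6% of all genes, with 24 higher (11.1% of all genes) and 15 lower (7.55%). The libraries of the compared groups did not overlap for 65 members in KO and 66 in WT, which is 43.3% and 44.0% of the members, where 33.7% and 35.7% of all genes did not overlap. The called members were 31.3% of the 150 in KO and 26.0% in WT. Summed osteoclast markers (4 of 5 averaging 1 mnTPM or more, Calcr at 0) were 78.2 to 136 mnTPM in KO and 63.9 to 98.8 in WT after IFN, against 145 to 267 and 147 to 203 untreated, and their part in these changes was not tested. Among the 137 members at 2 or more in every group, 39 were called in KO and 30 in WT, where 23.4% and 19.6% of all genes of that level were called. The median log2 fold change of the members was -0.09 in KO and -0.03 in WT, beside -0.03 and -0.02 over all genes tested, so the called members rose and fell around a centre near that of all genes. Between the genotypes, whose responses share no library, 35 members were called in both, which is 74.5% of the 47 in KO and 89.7% of the 39 in WT. They had the same direction in both genotypes, 23 higher and 12 lower, and 130 of the 150 members had the same sign. The matching shares over all genes tested were not computed, so this overlap is not read as particular to the carriers. Of these 35, 22 kept their calls in both genotypes when any single library of the compared groups was left out, 16 higher and 6 lower. The 35 include Slc6a19, Slc4a8, Slc36a2, Slc6a4 and Slc25a23, whose differences are partly set by the rule. The 22 include all of these but Slc6a4. With libraries 3, 6 and 9 left out, which leaves 2 a group, 29 members were called in KO and 22 in WT. On plain log2(TPM + 1), a scale that moved the median of all genes in KO by -0.28, 70 members were called in KO by limma, 16 higher and 54 lower.

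**Figure D2:**
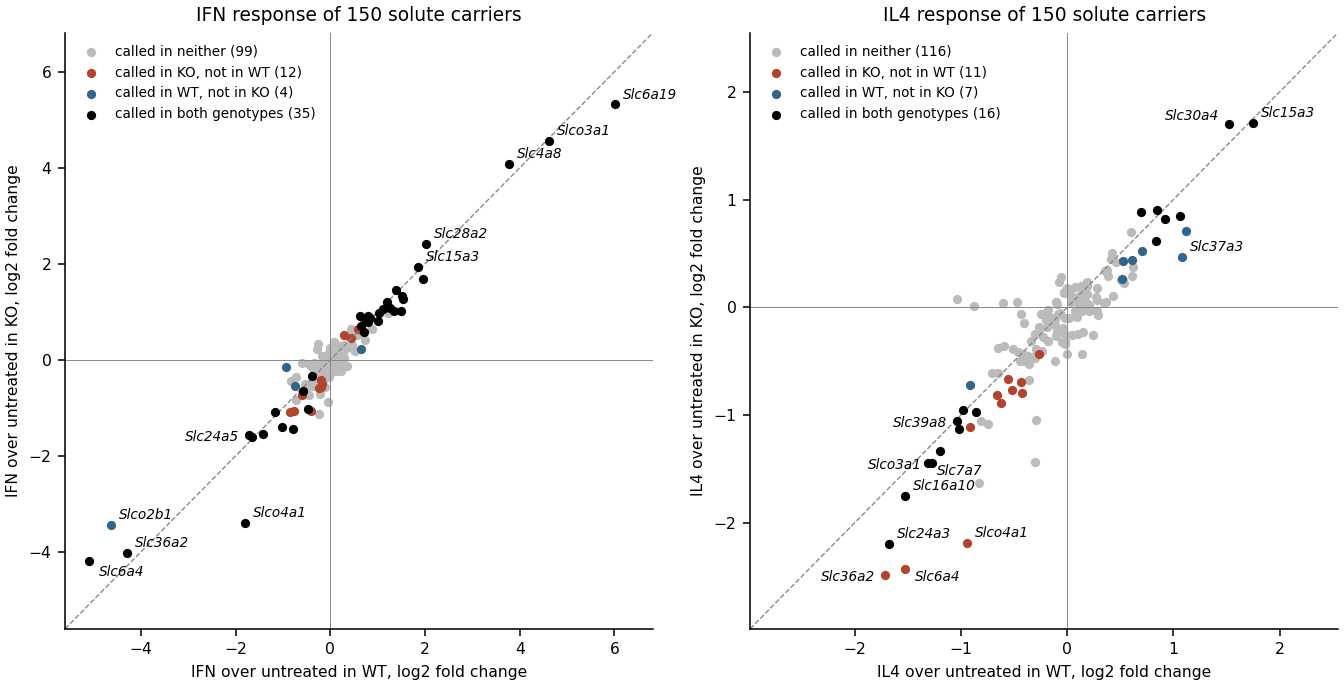
Log2 fold change of each of the 150 members in KO (y axis) against WT (x axis), for IFN over untreated on the left and IL4 over untreated on the right. Points are coloured by the genotypes in which the member was called and the dashed line marks equal change. For IFN, 35 members were called in both genotypes and none of these changed in opposite directions, and for IL4 16 were.

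Slco3a1 (also called OATP3A1), a carrier of organic anions that include prostaglandins, rose after IFN. It stood at 92.5, 168 and 112 mnTPM in IFN-treated KO libraries, against 5.90, 7.602 and 3.78 in untreated KO libraries. In WT the levels were 77.2, 93.0 and 119.6 mnTPM after IFN, against 3.92, 4.04 and 3.62 untreated. The groups lay far apart in both genotypes, with log2 fold changes of 4.56, SE 0.271, adjusted p = 7.53e-09 in KO and 4.62, SE 0.274, adjusted p = 9.72e-09 in WT. Other members of its family fell. The thyroid hormone carrier Slco4a1 was at 2.31, 1.30 and 1.39 mnTPM in IFN-treated KO against 7.598, 18.4 and 26.8 in untreated KO (-3.39, SE 0.473, adjusted p = 7.69e-05). In WT, Slco4a1 stood at 4.74, 2.58 and 2.37 against 5.72, 14.4 and 12.7 mnTPM (-1.81, SE 0.435, adjusted p = 0.00782). The WT call of Slco4a1 was lost without libraries 3, 6 and 9 (adjusted p = 0.124). Slco2b1, a carrier of steroid conjugates, was called in WT, where it stood at 0.148, 0.209 and 1.35 mnTPM after IFN against 4.61, 16.7 and 18.2 untreated (-4.63, SE 1.32, adjusted p = 0.0218). The values were 0.178, 0.178 and 1.66 against 3.66, 1.72 and 13.8 mnTPM in KO (-3.45, SE 1.32, adjusted p = 0.0777), and the difference between the genotypes was not called (adjusted p = 0.99998). The library numbered 3, 6 or 9 had the most Slco2b1 in each of the 6 groups, as it had of the fibroblast markers, whose part in its level was not tested. In WT after IFN the marker sums of libraries 4 and 6 were nearly equal (56.74 and 56.76 mnTPM), with Slco2b1 at 0.148 and 1.35. The WT call was lost without WT IFN 4, WT IFN 5, WT untreated 2 or WT untreated 3 (adjusted p up to 0.0882), and the WT log2 fold change was -6.26 without WT IFN 6.

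Among the 15 members of the amino acid families, 2 were called higher and 4 lower after IFN in KO, and 2 higher and 1 lower in WT. In both genotypes these counts include Slc6a19 as a rise and Slc6a4 as a fall, which are partly set by the rule. Of all genes tested, 12.6% were called higher and 8.93% lower in KO, and 11.1% higher and 7.55% lower in WT, and the counts of this and the next classes are read against these shares. Slc6a19 (ENSMUSG00000021565, chromosome 13, 73679745 to 73704865, minus strand) encodes a sodium-coupled carrier of neutral amino acids that is known from the brush border of gut and kidney. It was at 3.39, 19.9 and 4.46 mnTPM in IFN-treated KO libraries against 0.287, 0.274 and 0.164 in untreated KO, with library 5 far above the others. In WT it was at 5.90, 6.14 and 12.7 mnTPM after IFN against 0.161, 0.190 and 0 untreated. The groups did not overlap in either genotype, with log2 fold changes of 5.32, SE 0.727 in KO and 6.02, SE 0.815 in WT. As Slc6a19 passed the rule through the IFN libraries alone, this is a description. The folds rest on very low untreated levels and moved to 4.02 without KO IFN 5 and to 5.43 without WT untreated 3. The heavy chain Slc3a2, which started from a high level, stood at 700.3, 796 and 608 mnTPM against 423, 450.0 and 451 in KO (0.70, SE 0.141, adjusted p = 0.00197). In WT, Slc3a2 was at 512, 524 and 603 against 350.5, 365 and 338 mnTPM (0.64, SE 0.141, adjusted p = 0.00397). Its WT call was lost without libraries 3, 6 and 9 (adjusted p = 0.0668). The serotonin transporter Slc6a4, placed here by its family, was at 0.1004, 1.32 and 0.0326 mnTPM in IFN-treated KO against 2.74, 18.9 and 6.89 in untreated KO (-4.19, SE 0.926). In WT, Slc6a4 stood at 0.0926, 0.0597 and 0.149 against 0.527, 6.20 and 4.40 mnTPM (-5.11, SE 1.37). Its fold in KO was -6.96 without KO IFN 5 and -3.27 without KO untreated 2. It passed the rule through the untreated libraries alone. In KO the glutamine carrier Slc38a1 also fell, at 16.8, 16.8 and 20.3 against 25.99, 21.9 and 28.2 mnTPM (-0.50, SE 0.129, adjusted p = 0.0109). In WT it was at 21.8, 21.1 and 17.1 against 21.3, 23.5 and 24.3 mnTPM and was not called (adjusted p = 0.353). The creatine carrier Slc6a8 and Slc43a2, a facilitative carrier of large neutral amino acids, were called lower in KO with log2 fold changes of -1.07 and -0.73. The first call was lost without KO IFN 6 or KO untreated 1 (adjusted p up to 0.0679) and the second without KO IFN 4, KO IFN 6, KO untreated 1 or KO untreated 2 (adjusted p up to 0.155).

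The members of the lysosomal and vesicular families were led after IFN by Slc15a3, a proton-coupled carrier that moves histidine and peptides out of endolysosomes. Slc15a3 (ENSMUSG00000024737, chromosome 19, 10839727 to 10859362, plus strand) stood at 274, 263 and 266 mnTPM in IFN-treated KO libraries against 100.3, 56.0 and 58.0 in untreated KO, and at 305, 273 and 269.6 against 124, 56.1 and 60.1 in WT. All IFN-treated libraries were above all untreated ones (1.93, SE 0.287, adjusted p = 0.000142 in KO; 1.85, SE 0.286, adjusted p = 0.000236 in WT). The strand used in counting is not given in the sources used here. Of the members, 39 share an exon base with another gene, and 36 of these do so on the opposite strand. Slc15a3 shares exon bases with Tmem132a on the opposite strand, so their reads cannot be told apart there. Its relative Slc15a4 was not called, with group means of 50.4 ± 9.59 against 46.7 ± 9.87 mnTPM in KO and 43.3 ± 10.2 against 43.3 ± 5.50 in WT (SD, n = 3 each). Slc36a2, a proton-coupled carrier of small amino acids placed here by its family, passed the rule through the untreated libraries alone. It was at 0.513, 1.52 and 0.662 mnTPM after IFN against 9.45, 25.7 and 9.35 untreated in KO, and at 0.741, 0.498 and 0.0459 against 10.43, 9.49 and 7.07 in WT. On the log2 scale the folds were -4.03, SE 0.660 in KO and -4.30, SE 0.754 in WT, and leaving out single libraries gave -4.73 without KO IFN 5, -3.40 without KO untreated 2 and -4.94 without WT IFN 4. The neighbouring Slc36a1, which lies 19.3 kb away on chromosome 11 and encodes the lysosomal member of the family, was not called at 18.5 ± 4.08 against 25.1 ± 7.90 mnTPM in KO and 14.7 ± 3.09 against 16.4 ± 4.19 in WT. Slc38a9, which senses arginine at the lysosome, was called higher in KO (0.63, SE 0.205, adjusted p = 0.0372), a call lost without KO IFN 4, KO IFN 5, KO untreated 2 or KO untreated 3 (adjusted p up to 0.166).

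Of the 35 mitochondrial carriers, 6 were called higher and 2 lower in KO, and 6 higher and 4 lower in WT, so most of the class was not called. The falls of each genotype include Slc25a23, whose difference is partly set by the rule. Of all genes, 12.6% and 8.93% were called higher and lower in KO and 11.1% and 7.55% in WT. Slc25a12, the calcium-regulated aspartate/glutamate exchanger known as aralar, was at 81.8, 87.8 and 97.7 mnTPM in IFN-treated KO against 25.9, 40.5 and 35.8 in untreated KO (1.33, SE 0.143, adjusted p = 6.07e-06). In WT, Slc25a12 was at 80.0, 101 and 109 against 29.9, 36.8 and 33.3 mnTPM (1.51, SE 0.144, adjusted p = 1.99e-06). Its paralog Slc25a13 (citrin), which carries the same exchange, went the other way in WT, at 17.5, 17.1 and 24.02 against 27.5, 35.1 and 35.01 mnTPM (-0.74, SE 0.205, adjusted p = 0.0177). That call was lost without WT IFN 4, WT IFN 5, WT untreated 2 or WT untreated 3 (adjusted p up to 0.0765), and in KO Slc25a13 was at 17.8, 16.3 and 22.1 against 28.1, 20.7 and 35.2 mnTPM and was not called (adjusted p = 0.0749). The glutamate carrier Slc25a22 was at 39.3, 54.5 and 40.3 against 25.02, 21.99 and 23.3 mnTPM in KO (1.01, SE 0.153, adjusted p = 0.000173). In WT, Slc25a22 stood at 41.2, 43.5 and 64.9 against 21.6, 17.7 and 18.7 mnTPM (1.35, SE 0.154, adjusted p = 1.27e-05). For Slc25a12 and Slc25a22 every IFN library lay above every untreated one in both genotypes. Slc25a25, a calcium-dependent carrier of ATP-magnesium and phosphate, rose to 16.1, 16.9 and 12.5 against 8.55, 6.04 and 5.34 mnTPM in KO (1.26, SE 0.244, adjusted p = 0.00144). In WT, Slc25a25 was at 20.1, 16.2 and 15.5 against 8.79, 4.86 and 4.44 mnTPM (1.54, SE 0.244, adjusted p = 0.000311). Slc25a25 shares exon bases with Naif1 on the opposite strand. Its relative Slc25a23, with the same cargo, passed the rule through the untreated libraries alone. It was at 1.61, 0.766 and 1.205 against 3.53, 3.39 and 3.37 mnTPM in KO (-1.55, SE 0.291). In WT, Slc25a23 stood at 0.824, 1.31 and 1.24 against 3.62, 2.94 and 1.94 mnTPM (-1.43, SE 0.310). The abundant exchanger Slc25a5 was at 631, 686 and 667 against 284, 421 and 448 mnTPM in KO (0.81, SE 0.204, adjusted p = 0.00962). In WT, Slc25a5 was at 601, 722 and 877 against 301, 407 and 401 mnTPM (1.003, SE 0.205, adjusted p = 0.00241). The KO call was lost without KO untreated 1 (adjusted p = 0.0576), and without libraries 3, 6 and 9 neither genotype was called (adjusted p = 0.0540 in KO and 0.0506 in WT). Slc25a3, the phosphate carrier, was not called, with 492 ± 35.98 against 468 ± 26.7 mnTPM in KO and 499 ± 68.9 against 487 ± 28.3 in WT.

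Metal carriers of the copper family rose together after IFN. Slc31a1, the high-affinity copper importer CTR1, was at 120.3, 154 and 93.5 mnTPM in IFN-treated KO libraries against 33.97, 59.7 and 41.7 in untreated KO, and at 112, 103 and 101 against 33.01, 45.8 and 43.7 in WT. Every IFN library lay above every untreated one (1.46, SE 0.197, adjusted p = 5.47e-05 in KO; 1.38, SE 0.196, adjusted p = 0.000108 in WT). Slc31a2, its relative in endosomes and lysosomes, lies 62.3 kb away on chromosome 4 and was at 98.4, 129 and 78.7 against 46.04, 53.6 and 35.7 mnTPM in KO (1.198, SE 0.212, adjusted p = 0.000713). In WT, Slc31a2 stood at 73.8, 83.6 and 108 against 48.2, 36.4 and 32.7 mnTPM (1.19, SE 0.213, adjusted p = 0.000863). Slc31a2 did not overlap between the groups either. Among zinc carriers the changes went in both directions. Slc30a7, which loads zinc into the Golgi, rose to 12.6, 14.4 and 14.1 against 7.81, 7.16 and 7.45 mnTPM in KO (0.91, SE 0.0977, adjusted p = 6.31e-06). In WT, Slc30a7 was at 13.9, 13.03 and 13.3 against 8.03, 7.70 and 9.54 mnTPM (0.78, SE 0.0974, adjusted p = 3.00e-05). The plasma membrane zinc exporter Slc30a1 rose in WT, at 7.93, 11.6 and 14.5 against 4.52, 3.61 and 3.28 mnTPM (1.49, SE 0.329, adjusted p = 0.00436), a call lost without libraries 3, 6 and 9 (adjusted p = 0.112). In KO its groups overlapped at 8.32, 22.5 and 13.8 against 6.90, 9.84 and 6.27 mnTPM, and the call (1.01, SE 0.316, adjusted p = 0.0321) was lost without KO IFN 5, KO IFN 6, KO untreated 1 or KO untreated 3 (adjusted p up to 0.219). The importer Slc39a8, which carries zinc and manganese, fell to 3.41, 3.09 and 3.96 against 9.71, 9.605 and 9.39 mnTPM in KO (-1.45, SE 0.154, adjusted p = 5.38e-06). In WT, Slc39a8 stood at 6.14, 6.24 and 5.02 against 11.2, 9.67 and 9.44 mnTPM (-0.79, SE 0.146, adjusted p = 0.00114). Neither Slc30a7 nor Slc39a8 overlapped between the groups in either genotype. The magnesium carrier Slc41a2 was called higher in both genotypes (0.57, SE 0.177, adjusted p = 0.0288 in KO; 0.71, SE 0.176, adjusted p = 0.00916 in WT). The KO call was lost without KO IFN 5, KO IFN 6, KO untreated 2 or KO untreated 3 (adjusted p up to 0.128), and the WT call without libraries 3, 6 and 9 (adjusted p = 0.0648).

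Carriers of vitamins and choline also changed. Slc23a2, the sodium-coupled importer of ascorbate, stood at 130.4, 149 and 110.1 mnTPM in IFN-treated KO against 48.6, 35.3 and 35.3 in untreated KO (1.68, SE 0.278, adjusted p = 0.000385). In WT, Slc23a2 was at 152, 105 and 106 against 32.9, 27.2 and 25.1 mnTPM (1.96, SE 0.281, adjusted p = 0.000116). The choline carrier Slc44a1 was lower, at 48.02, 62.4 and 61.7 against 97.0, 125 and 144 mnTPM in KO (-1.08, SE 0.202, adjusted p = 0.00110). In WT, Slc44a1 stood at 53.9, 56.7 and 46.4 against 84.8, 137 and 138 mnTPM (-1.17, SE 0.202, adjusted p = 0.000655). No IFN-treated library of Slc44a1 reached the lowest untreated one in either genotype. The proton-coupled folate carrier Slc46a1 was called lower with log2 fold changes of -0.64 in KO and -0.57 in WT. The KO call was lost without KO IFN 6 or KO untreated 1 (adjusted p up to 0.0588) and the WT call without WT IFN 4, WT IFN 5, WT IFN 6, WT untreated 2 or WT untreated 3 (adjusted p up to 0.1002).

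Nucleoside carriers changed in both directions. Slc28a2, a concentrative carrier that brings purine nucleosides in with sodium, was at 14.2, 48.1 and 19.1 mnTPM in IFN-treated KO against 5.74, 5.10 and 4.69 in untreated KO, and at 29.3, 15.1 and 50.8 against 8.79, 6.62 and 8.14 in WT. The groups did not overlap, although the IFN libraries of each genotype were widely spread (2.41, SE 0.426, adjusted p = 0.000716 in KO; 2.03, SE 0.412, adjusted p = 0.00244 in WT). The KO fold was 1.74 without KO IFN 5, and the WT call was lost without libraries 3, 6 and 9 (adjusted p = 0.0801). A near-copy, Gm14085 (chromosome 2, 122484941 to 122528040), was listed at 0.378 mnTPM or less, so few reads were assigned to it. Slc29a1, an equilibrative carrier, fell to 38.5, 35.9 and 53.2 against 86.6, 90.0 and 88.7 mnTPM in KO (-1.03, SE 0.158, adjusted p = 0.000188). In WT it was at 59.2, 74.0 and 52.6 against 91.6, 86.2 and 81.2 mnTPM (-0.48, SE 0.156, adjusted p = 0.0415), a call lost without WT IFN 4, WT IFN 6, WT untreated 1, WT untreated 2 or WT untreated 3 (adjusted p up to 0.151). The lysosomal nucleoside carrier Slc29a3 rose to 33.6, 46.8 and 30.004 against 25.3, 20.5 and 15.1 mnTPM in KO (0.87, SE 0.219, adjusted p = 0.00893, lost without KO IFN 5 with adjusted p = 0.0552). In WT, Slc29a3 was at 36.9, 33.1 and 30.6 against 20.1, 17.2 and 18.98 mnTPM (0.85, SE 0.219, adjusted p = 0.0122).

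Of the 16 ion exchangers, 4 were called higher in each genotype after IFN, where 12.6% of all genes were in KO and 11.1% in WT. Of the 16, 5 were called lower in KO and 2 in WT, where 8.93% and 7.55% of all genes were. The rises of each genotype include Slc4a8, whose difference is partly set by the rule. Slc4a8, a sodium-driven chloride/bicarbonate exchanger, was at 14.7, 4.77 and 9.38 mnTPM in IFN-treated KO against 0.263, 0.205 and 0.355 in untreated KO (4.08, SE 0.533). In WT, Slc4a8 stood at 5.40, 2.61 and 5.61 against 0.152, 0.240 and 0.444 mnTPM (3.77, SE 0.558). Without KO untreated 3 the KO fold was 4.68. It too passed the rule through the IFN libraries alone. The potassium-chloride cotransporter Slc12a7 (ENSMUSG00000017756, chromosome 13, 73733094 to 73816754, plus strand) was at 51.9, 73.0 and 59.3 against 26.3, 34.6 and 27.7 mnTPM in KO (1.07, SE 0.146, adjusted p = 6.00e-05). In WT, Slc12a7 was at 57.3, 56.1 and 59.6 against 24.3, 23.7 and 25.04 mnTPM (1.26, SE 0.147, adjusted p = 1.59e-05). It lies 28.2 kb from Slc6a19 on chromosome 13, on the opposite strand, and both were higher in every IFN library than in any untreated one. Slc12a9, a family member of uncertain cargo, rose to 54.3, 39.5 and 48.1 against 28.7, 21.5 and 19.6 mnTPM in KO (1.06, SE 0.193, adjusted p = 0.000938). In WT, Slc12a9 stood at 42.8, 43.6 and 61.8 against 28.3, 23.2 and 19.6 mnTPM (1.11, SE 0.193, adjusted p = 0.000699). Again no IFN library of Slc12a9 overlapped the untreated ones. The sodium/calcium exchanger Slc8a1 was at 20.6, 27.6 and 26.7 against 14.1, 11.4 and 13.01 mnTPM in KO (0.97, SE 0.251, adjusted p = 0.0108, lost without KO untreated 2 with adjusted p = 0.0506). In WT, Slc8a1 was at 30.7, 24.1 and 23.1 against 13.998, 13.3 and 11.3 mnTPM (1.03, SE 0.251, adjusted p = 0.00807). Without libraries 3, 6 and 9 Slc8a1 was called in neither genotype (adjusted p = 0.0747 in KO and 0.0506 in WT). Other exchangers of calcium and protons fell. Slc24a5, a potassium-dependent sodium/calcium exchanger known from melanosomes, was at 5.72, 10.3 and 7.73 against 23.9, 24.1 and 23.5 mnTPM in KO (-1.57, SE 0.329, adjusted p = 0.00262). In WT, Slc24a5 stood at 5.68, 3.67 and 6.52 against 12.3, 19.6 and 21.01 mnTPM (-1.72, SE 0.344, adjusted p = 0.00206). It shares exon bases with Myef2 on the opposite strand. Its IFN libraries lay below its untreated ones in both genotypes, as did those of Slc9a9. The endosomal sodium/proton exchanger Slc9a9 fell to 8.62, 17.6 and 13.7 against 32.2, 49.98 and 22.8 mnTPM in KO (-1.39, SE 0.292, adjusted p = 0.00267). In WT it was at 11.3, 15.2 and 15.2 against 32.8, 26.5 and 25.6 mnTPM (-1.02, SE 0.290, adjusted p = 0.0213), a call lost without WT IFN 4 or WT untreated 1 (adjusted p up to 0.0816). The anion exchanger Slc4a2 fell in KO, at 33.2, 30.8 and 27.8 against 45.4, 53.3 and 45.2 mnTPM (-0.59, SE 0.111, adjusted p = 0.00121), and was at 34.1, 33.2 and 29.3 against 41.7, 40.2 and 34.7 mnTPM in WT (adjusted p = 0.151). Slc4a2 shares exon bases with Fastk on the opposite strand, whose mean level was 37.4 mnTPM.

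In the secretory pathway, Slc33a1, which carries acetyl-CoA into the endoplasmic reticulum, was at 45.6, 36.7 and 38.96 mnTPM in IFN-treated KO against 25.8, 23.3 and 21.1 in untreated KO (0.81, SE 0.162, adjusted p = 0.00182). In WT, Slc33a1 was at 43.997, 34.2 and 42.5 against 25.7, 22.8 and 24.6 mnTPM (0.74, SE 0.161, adjusted p = 0.00390). None of the 5 carriers of nucleotide sugars (Slc35a1 to Slc35a5) was called. Among the 8 sugar carriers, Slc50a1, a glucose carrier of the Golgi, was called, at 82.0, 64.3 and 67.1 against 49.4, 32.2 and 31.8 mnTPM in KO (0.92, SE 0.191, adjusted p = 0.00256). In WT, Slc50a1 stood at 66.1, 63.7 and 73.7 against 52.7, 40.1 and 38.8 mnTPM (0.62, SE 0.189, adjusted p = 0.0319). The WT call was lost without WT IFN 4, WT IFN 5, WT IFN 6, WT untreated 2 or WT untreated 3 (adjusted p up to 0.121). Slc33a1, without libraries 3, 6 and 9, was called in neither genotype (adjusted p = 0.0644 in KO and 0.0775 in WT), and neither was Slc50a1 (adjusted p = 0.0567 and 0.230).

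**Figure D3:**
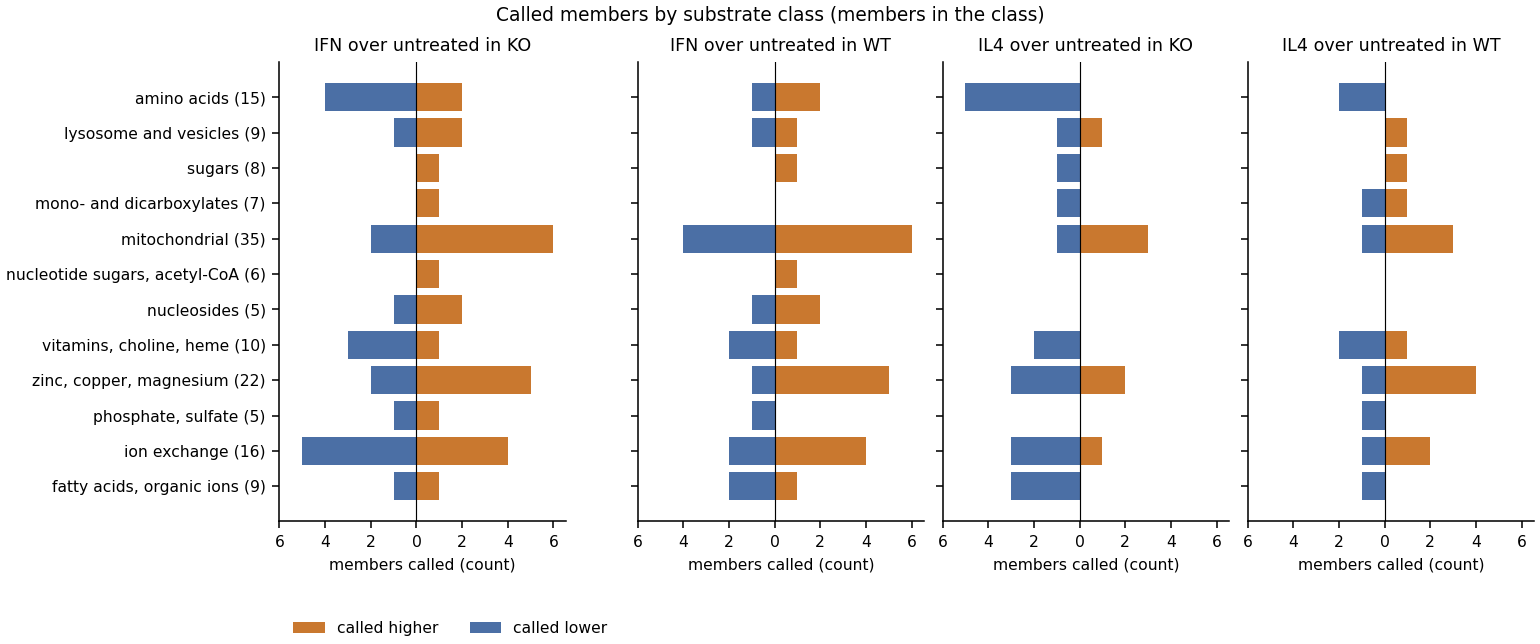
Number of members called higher (bars to the right) and lower (bars to the left) in each class of carriers, with the number of members in the class in brackets, for IFN over untreated and IL4 over untreated in KO and in WT. Mitochondrial carriers had 6 rises in each genotype after IFN, and the amino acid families had 5 falls in KO and 2 in WT after IL4.

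The sequence before a RefSeq start of several members that were higher after IFN is shown because each held a searched motif. Slc6a19 and Slc12a7 are also shown because they are neighbours. As Slc6a19 passed the rule through the IFN libraries alone, its rise is partly set by the rule. RefSeq promoters on GRCm38.p6 were found for 114 members, with 156 start sites, and the 250 bases before each start were searched on both strands for 3 short motifs. These were TTC and GAA spaced by 4 bases (bound by STAT6), GAAA and GAAA spaced by 2 bases (the core of an interferon-stimulated response element) and CACGTG (an E-box). A match is a description of the letters and does not show binding. In the sequences, capitals mark the matches and the strand is that of the gene.

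The promoters of 6 members that were higher after IFN in both genotypes were as follows.
Slc6a19 (chr13:73692637-73692886, minus strand): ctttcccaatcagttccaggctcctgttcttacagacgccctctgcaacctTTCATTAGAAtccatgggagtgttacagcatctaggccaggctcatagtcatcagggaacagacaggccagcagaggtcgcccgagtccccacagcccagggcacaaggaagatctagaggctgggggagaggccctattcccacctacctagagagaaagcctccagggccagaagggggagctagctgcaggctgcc
Slc12a7 (chr13:73763447-73763696, plus strand): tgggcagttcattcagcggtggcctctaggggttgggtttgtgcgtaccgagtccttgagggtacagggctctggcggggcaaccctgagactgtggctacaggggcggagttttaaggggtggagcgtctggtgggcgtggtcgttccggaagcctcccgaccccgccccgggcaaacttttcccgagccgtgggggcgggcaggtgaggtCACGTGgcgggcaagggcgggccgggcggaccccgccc
Slc12a9 (chr5:137333583-137333832, minus strand): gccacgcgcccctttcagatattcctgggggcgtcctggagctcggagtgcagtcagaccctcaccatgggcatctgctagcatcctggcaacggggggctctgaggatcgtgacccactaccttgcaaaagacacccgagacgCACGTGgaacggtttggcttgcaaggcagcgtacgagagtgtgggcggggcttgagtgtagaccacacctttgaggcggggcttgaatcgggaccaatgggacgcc
Slc25a22 (chr7:141435376-141435625, minus strand): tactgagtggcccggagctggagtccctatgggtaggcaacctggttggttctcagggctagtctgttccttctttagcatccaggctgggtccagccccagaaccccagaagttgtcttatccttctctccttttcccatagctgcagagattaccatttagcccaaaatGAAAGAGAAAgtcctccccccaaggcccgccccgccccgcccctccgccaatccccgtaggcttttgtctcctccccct
Slc28a2 (chr2:122426185-122426434, plus strand): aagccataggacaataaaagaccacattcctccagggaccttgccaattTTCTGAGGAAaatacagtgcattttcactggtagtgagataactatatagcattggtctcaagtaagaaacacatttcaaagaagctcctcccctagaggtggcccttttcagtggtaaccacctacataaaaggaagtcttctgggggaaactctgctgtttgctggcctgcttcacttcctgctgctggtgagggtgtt
Slc33a1 (chr3:63964734-63964983, minus strand): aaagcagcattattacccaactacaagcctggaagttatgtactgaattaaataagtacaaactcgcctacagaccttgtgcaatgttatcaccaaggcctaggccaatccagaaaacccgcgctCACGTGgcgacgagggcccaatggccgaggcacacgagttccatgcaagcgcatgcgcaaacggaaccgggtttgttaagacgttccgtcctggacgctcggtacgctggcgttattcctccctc

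These windows precede a RefSeq start, from which positions are counted. For Slc6a19, Slc12a7 and Slc25a22 the window lies wholly inside the GENCODE span of the gene, so that start is an internal one. In these windows the neighbours Slc6a19 and Slc12a7 shared no match: Slc6a19 held the STAT6 motif at -199 and Slc12a7 the E-box at -38. Slc12a9 and Slc33a1 held the E-box at -106 and -125, Slc25a22 the interferon-stimulated motif at -79, and Slc28a2 the STAT6 motif at -201. The E-box stood in 14.1% of member promoters (22 of 156), in 8.15% of the promoters of all tested genes and in 6.02% of all 32851 promoters. The interferon-stimulated motif stood in 1.92% of member promoters, those of Slc25a15, Slc25a22 and Slc37a1, against 2.90% of tested genes. Of these members Slc25a22 was called after IFN. The STAT6 motif stood in 4.49% of member promoters, against 4.71% of tested genes. Its 6 members were Slc28a2, Slc30a5, Slc37a4, Slc43a2, Slc50a1 and Slc6a19. Slc28a2 and Slc50a1 were called higher after IFN in both genotypes, as was Slc6a19, whose rise is partly set by the rule. Slc43a2 was called lower after IL4 in both genotypes and after IFN in KO, and Slc30a5 and Slc37a4 were called after neither cytokine. Of the 21 members with the E-box, Slc12a7, Slc12a9 and Slc33a1 were called higher after IFN in both genotypes and Slc29a1 and Slc39a8 lower, so the motif stood before members of both directions.

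The IL4 comparison asked the same question for the other cytokine. Fewer carriers were called than after IFN. Slc15a3 and the zinc carriers Slc30a4 and Slc39a6 were among those called higher in both genotypes. The zinc importer Slc39a8, Slc16a10 (aromatic amino acids), Slc44a1 (choline), Slc46a1 (folate) and Slc24a3 (calcium) were among those called lower in both. In KO 27 members were called, where 9.44% of all genes were called. Of these, 7 were higher (5.33% of all genes) and 20 lower (4.11% of all genes). In WT 23 were called, against 8.49% of all genes, with 13 higher (4.96% of all genes) and 10 lower (3.53%). The libraries did not overlap for 53 members in KO and 55 in WT, which is 35.3% and 36.7% of the members, where 22.0% and 27.3% of all genes did not overlap. The called members were 18% of the 150 in KO and 15.3% in WT. Among the 137 members at 2 or more in every group 21 were called in KO and 20 in WT, where 10% and 8.81% of all genes of that level were. The median log2 fold change of the members was -0.08 in KO and -0.07 in WT, beside 0.01 and -0.01 over all genes tested. In both genotypes 16 members were called, which is 59.3% of the 27 in KO and 69.6% of the 23 in WT, 7 higher and 9 lower, with 126 of the 150 members of the same sign. The matching shares over all genes tested were not computed. The 16 include Slc25a23, which passed the rule through the untreated libraries alone. Of the 16, 8 kept their calls in both genotypes when any single library of the compared groups was left out, namely Slc15a3, Slc30a4 and Slc39a6, which were higher, and Slc16a10, Slc24a3, Slc39a8, Slc44a1 and Slc46a1, which were lower. Leaving out libraries 3, 6 and 9 gave counts of 9 in KO and 8 in WT. In WT the count also fell to 15 without WT untreated 2, to 14 without WT IL4 8 and to 15 without WT IL4 9, and in KO to 17 without KO untreated 2 and to 15 without KO IL4 9. Summed osteoclast markers (4 of 5 present, Calcr at 0) were 506 to 897 mnTPM in KO and 564 to 623 in WT after IL4, against 145 to 267 and 147 to 203 untreated. Summed endothelial markers (1 of 4 averaging 1 mnTPM or more after IL4 and 2 untreated) were 10.9 to 19.5 mnTPM in KO and 12.03 to 19.9 in WT after IL4, against 4.05 to 5.76 and 4.34 to 4.88 untreated. The part of either in these changes was not tested. On plain log2(TPM + 1), limma called 32 in KO, 4 higher and 28 lower, with the median of all genes moved by -0.17, and 18 in WT, 6 higher and 12 lower. The IL4 and IFN responses of a genotype share its untreated libraries, so values for members that changed after both are set side by side and their likeness was not tested.

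Slc15a3, called after IFN, was also called higher after IL4. It was at 208, 255 and 226 mnTPM in IL4-treated KO against 100.3, 56.0 and 58.0 in untreated KO (1.71, SE 0.285, adjusted p = 0.00119). In WT, Slc15a3 was at 249, 325 and 219 against 124, 56.1 and 60.1 mnTPM (1.75, SE 0.285, adjusted p = 0.000916). The KO call was lost without libraries 3, 6 and 9 (adjusted p = 0.0586). Directly compared, IFN over IL4 gave log2 fold changes of 0.22, SE 0.276, adjusted p = 0.651 in KO and 0.10, SE 0.276, adjusted p = 0.861 in WT. Slc30a4, which loads zinc into endosomal vesicles, stood at 31.7, 27.7 and 32.9 mnTPM in IL4-treated KO against 6.88, 8.40 and 12.97 in untreated KO (1.70, SE 0.278, adjusted p = 0.00100). In WT, Slc30a4 stood at 23.7, 27.6 and 39.7 against 7.22, 12.8 and 12.1 mnTPM (1.52, SE 0.277, adjusted p = 0.00220). No library of the other groups came within the range of the IL4 libraries of Slc30a4. The zinc importer Slc39a6 was at 59.7, 65.2 and 60.2 against 39.5, 38.8 and 43.6 mnTPM in KO (0.61, SE 0.123, adjusted p = 0.00470). In WT, Slc39a6 was at 76.0, 71.0 and 61.8 against 36.97, 40.4 and 40.7 mnTPM (0.84, SE 0.123, adjusted p = 0.000383). Its KO call was lost without libraries 3, 6 and 9 (adjusted p = 0.0614). The importer Slc39a8 fell as it did after IFN, to 4.56, 4.47 and 4.77 against 9.71, 9.605 and 9.39 mnTPM in KO (-1.06, SE 0.148, adjusted p = 0.000287). In WT, Slc39a8 stood at 5.53, 4.78 and 4.23 against 11.2, 9.67 and 9.44 mnTPM (-1.04, SE 0.147, adjusted p = 0.000275). Slc39a14, a zinc and iron importer of the same family, was called lower in KO at 9.91, 8.67 and 8.16 against 11.8, 15.8 and 18.9 mnTPM (-0.89, SE 0.208, adjusted p = 0.0130), a call lost without KO IL4 9 or KO untreated 3 (adjusted p up to 0.0572).

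Of the 15 members of the amino acid families, 0 were called higher after IL4, where 5.33% of all genes were in KO and 4.96% in WT. Called lower were 5 in KO and 2 in WT, where 4.11% and 3.53% of all genes were. The 5 in KO include Slc6a4, which passed the rule through the untreated libraries alone. Slc43a2 was at 157, 140.4 and 89.9 mnTPM in IL4-treated KO against 337, 286 and 226 in untreated KO (-1.13, SE 0.251, adjusted p = 0.00873). In WT, Slc43a2 was at 136, 91.4 and 90.3 against 257, 194 and 198 mnTPM (-1.02, SE 0.251, adjusted p = 0.0174), where the call was lost without WT IL4 8, WT IL4 9 or WT untreated 1 (adjusted p up to 0.0879). Every IL4 library of Slc43a2 lay below every untreated one in both genotypes, and the same held for Slc7a7. Slc7a7, the light chain of an exchanger of cationic and neutral amino acids, fell to 3.99, 8.36 and 4.02 against 11.9, 22.4 and 10.8 mnTPM in KO (-1.45, SE 0.376, adjusted p = 0.0231). In WT, Slc7a7 stood at 5.14, 4.83 and 5.33 against 16.1, 11.6 and 11.5 mnTPM (-1.31, SE 0.380, adjusted p = 0.0421). The KO call of Slc7a7 was lost without KO IL4 7, KO IL4 9 or KO untreated 2 (adjusted p up to 0.115), and the WT call without any 1 of its 6 libraries (adjusted p up to 0.136). Slc7a7 shares exon bases with Oxa1l on the opposite strand. Slc16a10, a carrier of aromatic amino acids that belongs to the monocarboxylate family, fell in both genotypes. It was at 19.7, 20.8 and 19.7 mnTPM after IL4 against 52.96, 61.0 and 83.2 untreated in KO (-1.75, SE 0.239, adjusted p = 0.000233). In WT, Slc16a10 was at 25.6, 23.9 and 28.8 against 55.3, 82.1 and 82.8 mnTPM (-1.53, SE 0.236, adjusted p = 0.000603). After IFN it was at 27.4, 52.9 and 53.3 mnTPM in KO and 44.96, 51.3 and 58.0 in WT, and was called in neither genotype (adjusted p = 0.124 and 0.160). Its fall was thus called after IL4 and not after IFN, and the difference between the cytokines was called in both genotypes (1.22 in KO and 1.03 in WT for IFN over IL4). The glutamine carriers Slc38a1 and Slc38a2, 44.5 kb apart on chromosome 15, were called lower in KO with log2 fold changes of -0.43 and -0.81. Leave-one-out fits lost the first call without KO IL4 7, KO IL4 8, KO IL4 9, KO untreated 1 or KO untreated 3 (adjusted p up to 0.134), and the second without KO IL4 8, KO IL4 9, KO untreated 2 or KO untreated 3 (adjusted p up to 0.143). Slc36a2 was at 4.06, 3.02 and 0.462 against 9.45, 25.7 and 9.35 mnTPM in KO (-2.48, SE 0.546, and -1.85 without KO untreated 2), and at 4.34, 1.83 and 1.97 against 10.43, 9.49 and 7.07 mnTPM in WT. Slc6a4 was at 1.97, 2.70 and 0.351 against 2.74, 18.9 and 6.89 mnTPM in KO (-2.43, SE 0.734), with the highest of these levels in KO untreated 2.

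Outside the amino acid families, the falls after IL4 included carriers of calcium, choline, folate and organic anions. Slc24a3, a potassium-dependent sodium/calcium exchanger, was at 0.763, 2.08 and 1.14 mnTPM in IL4-treated KO against 6.28, 7.14 and 4.61 in untreated KO (-2.20, SE 0.354, adjusted p = 0.000909). In WT, Slc24a3 stood at 1.89, 2.04 and 0.831 against 6.86, 3.69 and 4.24 mnTPM (-1.68, SE 0.346, adjusted p = 0.00568; adjusted p = 0.0767 without libraries 3, 6 and 9). The IL4 libraries of Slc24a3 lay below the untreated ones in both genotypes, as did those of Slc44a1 and Slc46a1. Slc44a1 was at 72.1, 64.5 and 50.2 against 97.0, 125 and 144 mnTPM in KO (-0.96, SE 0.201, adjusted p = 0.00623). In WT, Slc44a1 was at 60.9, 55.4 and 64.6 against 84.8, 137 and 138 mnTPM (-0.98, SE 0.201, adjusted p = 0.00550), close to its IFN-treated levels. Slc46a1 fell to 7.71, 8.72 and 7.96 against 18.5, 16.1 and 14.6 mnTPM in KO (-0.97, SE 0.172, adjusted p = 0.00190). In WT, Slc46a1 stood at 10.95, 8.30 and 7.10 against 15.99, 16.3 and 16.98 mnTPM (-0.86, SE 0.171, adjusted p = 0.00434). Without libraries 3, 6 and 9 the calls of Slc44a1 were lost in both genotypes (adjusted p = 0.172 in KO and 0.0748 in WT) and that of Slc46a1 in WT (adjusted p = 0.0956). Slco3a1, which rose after IFN, was lower after IL4 at 2.31, 1.99 and 1.67 mnTPM against 5.90, 7.602 and 3.78 in KO (-1.44, SE 0.287, adjusted p = 0.00434). In WT, Slco3a1 was at 2.11, 1.31 and 1.47 against 3.92, 4.04 and 3.62 mnTPM (-1.28, SE 0.297, adjusted p = 0.0123). Its WT call was lost without WT IL4 8 (adjusted p = 0.0647) and without libraries 3, 6 and 9 (adjusted p = 0.0956). Slco4a1 fell in KO, at 3.37, 4.39 and 3.83 against 7.598, 18.4 and 26.8 mnTPM (-2.19, SE 0.418, adjusted p = 0.00337; adjusted p = 0.141 without libraries 3, 6 and 9). In WT it was at 6.66, 4.37 and 6.003 against 5.72, 14.4 and 12.7 mnTPM (adjusted p = 0.190).

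Of the 35 mitochondrial carriers, 4 were called after IL4 in each genotype, and they were the same genes. Of all genes tested, 9.44% were called in KO and 8.49% in WT. The 4 were Slc25a5, Slc25a13 and Slc25a25, which were higher, and Slc25a23, which was lower. Slc25a23 passed the rule through the untreated libraries alone, so its fall is partly set by the rule. Slc25a13 was at 43.4, 48.9 and 66.003 mnTPM in IL4-treated KO against 28.1, 20.7 and 35.2 in untreated KO (0.90, SE 0.202, adjusted p = 0.00961). In WT, Slc25a13 stood at 59.1, 51.7 and 65.1 against 27.5, 35.1 and 35.01 mnTPM (0.85, SE 0.201, adjusted p = 0.0138). The call was lost without KO IL4 9 or KO untreated 2 in KO (adjusted p up to 0.0577) and without WT IL4 9 or WT untreated 1 in WT (adjusted p up to 0.0691). Its paralog Slc25a12 was not called, at 34.7, 48.2 and 45.5 against 25.9, 40.5 and 35.8 mnTPM in KO and 35.8, 46.3 and 36.4 against 29.9, 36.8 and 33.3 in WT. The aspartate/glutamate exchangers thus had their highest levels after different cytokines, Slc25a12 after IFN and Slc25a13 after IL4. Slc25a25 was at 14.6, 11.1 and 9.82 against 8.55, 6.04 and 5.34 mnTPM in KO (0.85, SE 0.244, adjusted p = 0.0387). In WT, Slc25a25 was at 14.4, 12.4 and 11.1 against 8.79, 4.86 and 4.44 mnTPM (1.06, SE 0.244, adjusted p = 0.0111). The call was lost without KO IL4 7, KO IL4 8, KO untreated 2 or KO untreated 3 in KO (adjusted p up to 0.122) and without WT IL4 7, WT untreated 2 or WT untreated 3 in WT (adjusted p up to 0.0587). For Slc25a5 the changes were 0.82, SE 0.204, adjusted p = 0.0174 in KO, lost without KO IL4 8, KO IL4 9 or KO untreated 1 (adjusted p up to 0.0917), and 0.92, SE 0.204, adjusted p = 0.00944 in WT, lost without WT untreated 1 (adjusted p = 0.0507). Library 1 had the lowest untreated level of this gene in each genotype. For Slc25a23 the log2 fold changes were -1.34, SE 0.276 in KO and -1.2005, SE 0.293 in WT.

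Slc37a3, a member of the sugar phosphate family, was called in WT at 17.6, 13.5 and 15.96 against 7.35, 6.17 and 6.32 mnTPM (1.08, SE 0.158, adjusted p = 0.000377). In KO it stood at 11.7, 15.2 and 13.99 against 9.73, 9.999 and 10.2 mnTPM (log2 fold change 0.47, SE 0.157, adjusted p = 0.0737), and the KO untreated libraries already lay above the WT untreated ones. The heme carrier Slc48a1, which returns heme from phagolysosomes, was called in WT at 365, 434 and 369.9 against 226, 247 and 249 mnTPM (0.71, SE 0.198, adjusted p = 0.0353), a call lost without any 1 of its 6 libraries (adjusted p up to 0.151). In KO it stood at 425, 608 and 395 against 278, 390.2 and 337 mnTPM (adjusted p = 0.121). It shares exon bases with Hdac7 on the opposite strand. The phosphate carrier Slc20a1 was called lower in WT, at 32.04, 19.2 and 23.6 against 60.7, 38.9 and 39.1 mnTPM (-0.91, SE 0.221, adjusted p = 0.0157; lost without WT IL4 8, WT IL4 9 or WT untreated 1, adjusted p up to 0.0893).

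Set directly against each other, IFN-treated and IL4-treated cells differed in 41 members in each genotype, where 22.2% of all genes in KO and 21.1% in WT were called. In KO 30 were higher after IFN (12.4% of all genes) and 11 lower (9.87% of all genes). In WT 28 were higher (11.8% of all genes) and 13 lower (9.28% of all genes). The libraries did not overlap for 61 members in KO and 62 in WT, which is 40.7% and 41.3% of the members, where 31.9% and 35.1% of all genes did not overlap. The called members were 27.3% of the 150 in each genotype. Summed osteoclast markers were 78.2 to 136 mnTPM in KO and 63.9 to 98.8 in WT after IFN, against 506 to 897 and 564 to 623 after IL4. Summed endothelial markers (2 of 4 averaging 1 mnTPM or more after IFN and 1 after IL4, Tek at 0 in WT after IFN) were 3.59 to 9.38 and 4.20 to 7.41 after IFN, against 10.9 to 19.5 and 12.03 to 19.9 after IL4, in KO and WT in that order, and the part of either was not tested. A total of 35 members were called in both genotypes, 24 higher and 11 lower, which is 85.4% of each list, and 24 of them kept both calls when any single library was left out. The matching share over all genes tested was not computed. The 35 include Slc6a19, Slc4a8 and Slc37a1, which passed the rule through the IFN libraries alone. Those that kept both calls include Slc6a19 and Slc4a8. Among the 137 members at 2 or more in every group 36 were called in KO and 34 in WT, against 24.2% and 22.7% of all genes of that level. Without libraries 3, 6 and 9, 28 were called in KO and 20 in WT. The median log2 fold change was 0.09 in KO and 0.08 in WT, beside -0.03 and -0.02 over all genes tested. On plain log2(TPM + 1), limma called 36 in KO, 19 higher and 17 lower, with the median of all genes moved by -0.10.

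Some members differed between the cytokines although no response to untreated cells, or a single one, was called. Slc25a37 (mitoferrin), the iron importer of mitochondria, was at 27.5, 19.5 and 11.8 mnTPM in IFN-treated KO against 6.71, 4.44 and 3.53 in IL4-treated KO (2.06, SE 0.533, adjusted p = 0.0101). In WT, Slc25a37 was at 33.2, 13.9 and 12.3 against 8.73, 3.31 and 3.60 mnTPM (1.97, SE 0.528, adjusted p = 0.0132). In WT its log2 fold change was 1.27 without WT IFN 4 and 2.67 without WT IL4 7, and its call was lost without WT IFN 4, WT IL4 8 or WT IL4 9 (adjusted p up to 0.105). Slc1a5, the sodium-dependent glutamine exchanger ASCT2, was at 20.4, 10.61 and 21.7 against 43.4, 30.6 and 39.05 mnTPM in KO (-1.09, SE 0.248, adjusted p = 0.00414). In WT, Slc1a5 stood at 24.6, 17.5 and 15.7 against 47.6, 42.95 and 42.2 mnTPM (-1.19, SE 0.247, adjusted p = 0.00211; adjusted p = 0.0689 without libraries 3, 6 and 9). The mean untreated level of Slc1a5 lay between these, with libraries at 33.9, 20.8 and 33.7 mnTPM in KO and 30.2, 31.3 and 26.9 in WT. For Slc25a37 and Slc1a5 the IFN and IL4 libraries did not overlap in either genotype. Slc37a2, an exchanger of glucose-6-phosphate and phosphate, stood at 525, 439.7 and 424 against 182, 188 and 115 mnTPM in KO (1.40, SE 0.227, adjusted p = 0.000248). In WT, Slc37a2 was at 420.2, 381 and 452 against 260.0, 189 and 154 mnTPM (0.94, SE 0.224, adjusted p = 0.00592). It was also called lower in IL4-treated than untreated KO (-0.77, SE 0.224, adjusted p = 0.0423), a call lost without KO IL4 8, KO IL4 9, KO untreated 1, KO untreated 2 or KO untreated 3 (adjusted p up to 0.143). The urate carrier Slc2a9 was at 16.05, 16.3 and 12.6 against 11.8, 9.94 and 7.58 mnTPM in KO (0.67, SE 0.199, adjusted p = 0.0235; lost without KO IFN 4, KO IFN 5, KO IL4 8 or KO IL4 9, adjusted p up to 0.112). In WT, Slc2a9 stood at 16.7, 17.99 and 14.5 against 9.55, 8.71 and 7.19 mnTPM (0.96, SE 0.201, adjusted p = 0.00240). The anion exchanger Slc26a6 was lower after IFN, at 12.2, 5.31 and 6.49 against 14.2, 14.6 and 9.50 mnTPM in KO, where the groups overlapped (-1.04, SE 0.264, adjusted p = 0.00901; adjusted p = 0.0544 without libraries 3, 6 and 9). In WT, Slc26a6 was at 4.87, 5.37 and 8.78 against 18.9, 17.3 and 12.6 mnTPM (-1.07, SE 0.263, adjusted p = 0.00711).

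For members called after 1 or both cytokines, the direct comparison gave folds of 5.999 and 5.90 for Slco3a1 in KO and WT. They were 2.12 and 1.94 for Slc31a1, 1.75 and 1.55 for Slc12a9, and -2.15 and -2.37 for Slc30a4. Besides its rise after IFN, Slco3a1 was called lower after IL4 in both genotypes, and Slc31a1 and Slc12a9 were in KO alone. The copper carrier Slc31a1 was thus higher after IFN and the vesicular zinc carrier Slc30a4 higher after IL4, with no overlap of the libraries. The heme carrier Slc48a1 was lower after IFN than after IL4, at 269, 286 and 211 against 425, 608 and 395 mnTPM in KO (-0.89, SE 0.198, adjusted p = 0.00346). In WT, Slc48a1 stood at 217, 272 and 171 against 365, 434 and 369.9 mnTPM (-0.82, SE 0.198, adjusted p = 0.00646; adjusted p = 0.0991 without libraries 3, 6 and 9). For Slc6a19, which passed the rule through the IFN libraries alone, the log2 fold changes were 6.37, SE 0.851 in KO and 6.31, SE 0.884 in WT. They rest on 0 or near 0 in the IL4 libraries, and were 5.07 without KO IFN 5, 7.52 without KO IL4 7 and 8.25 without WT IL4 7. For Slc28a2 the folds were 2.51, SE 0.433, adjusted p = 0.000458 in KO, or 1.84 without KO IFN 5, and 2.05, SE 0.417, adjusted p = 0.00190 in WT (adjusted p = 0.0910 without libraries 3, 6 and 9).

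**Figure D4:**
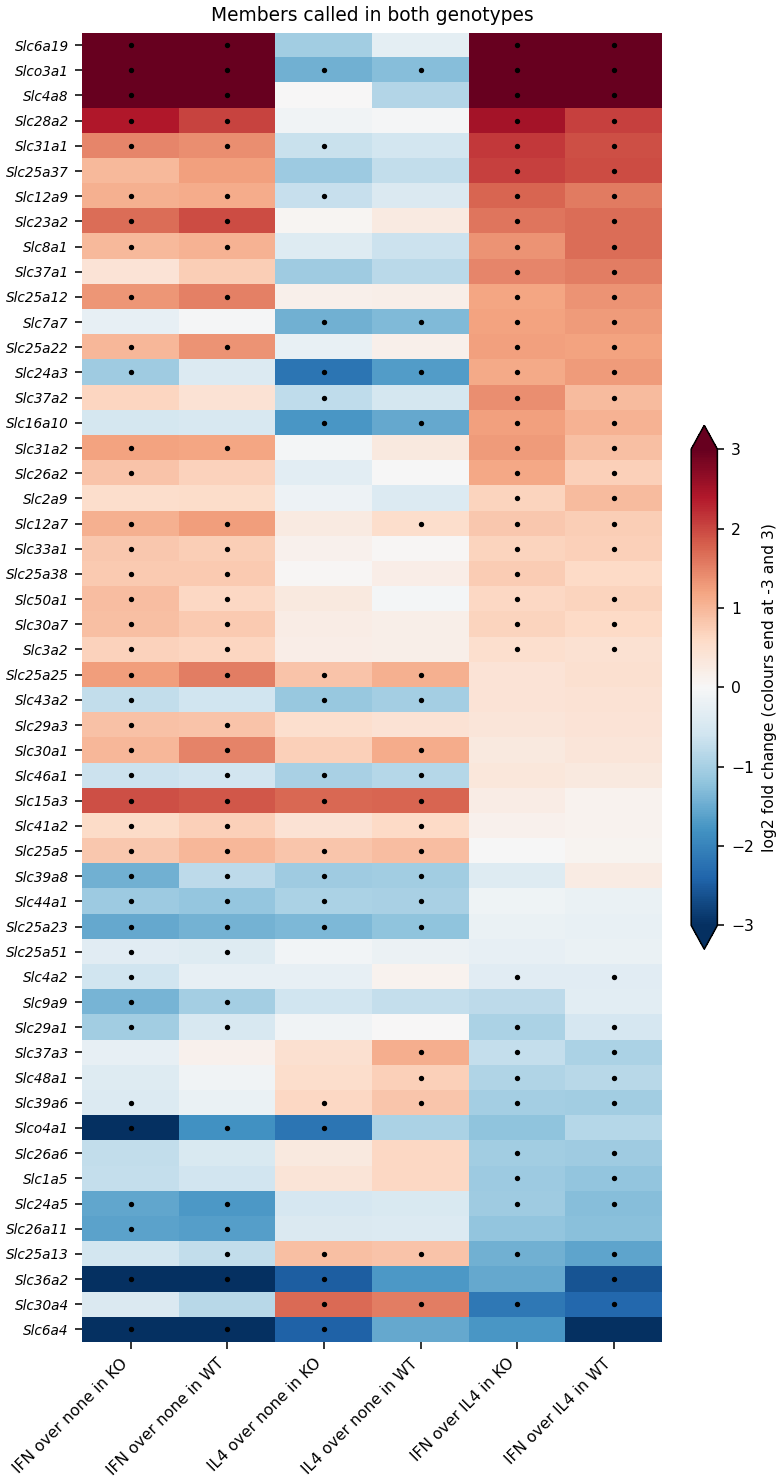
Log2 fold changes (colour, red higher and blue lower, ending at -3 and 3) of 52 members called in both genotypes in at least 1 of the 3 treatment comparisons, in 6 comparisons (columns). Rows run from the highest to the lowest sum of the IFN over IL4 changes, and dots mark calls. Slc15a3 is red in all 4 columns against untreated cells, while Slc25a13 and Slc30a4 are blue for IFN over IL4.

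Of the 150 members, 88 were called in none of the 4 responses to untreated cells, a share that was not computed for all genes tested. They included well-expressed carriers such as Slc25a3, the zinc importer Slc39a7 (group means from 104 to 132 mnTPM), the taurine carrier Slc6a6 (from 207 to 323) and Slc7a8, a light chain for neutral amino acids that pairs with Slc3a2 (from 146 to 219.9). The light chains Slc7a5 and Slc7a6 were not called either, although Slc3a2 rose after IFN. The light chain Slc7a7 was not called after IFN but was called lower after IL4 in both genotypes. A missed call does not show that a level stayed the same. The level of Slc39a4 varied widely within groups. The zinc importer Slc39a4 was at 8.24, 33.4 and 1.73 mnTPM in KO and 4.82, 15.9 and 2.48 in WT after IFN, at 7.17, 19.6 and 2.63 in KO and 5.29, 12.7 and 1.85 in WT after IL4, and at 13.2, 56.7 and 12 in KO and 9.68, 7.12 and 7.49 in WT untreated. The library numbered 2, 5 or 8 was the highest in each group other than untreated WT.

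The comparison of KO with WT asked whether the loss of L13a changed carrier transcripts. No member was called in any treatment by edgeR: 0 of 150 after IFN, where 0.0639% of all genes (8) were called, 0 after IL4, where 0.0639% (8) were, and 0 in untreated cells, where 0.0799% (10) were. The difference between the genotypes in the response to IFN or IL4 was called for 0 members and for 0.0% of all genes. At an unadjusted p under 0.05 stood 5 members after IFN, 1 after IL4 and 10 untreated, or 3.33%, 0.667% and 6.67% of the members, beside 5.79%, 2.46% and 7.54% of all genes tested. DESeq2 called 1 member, Slc39a8 after IFN (adjusted p = 0.00442), and 0 in the other 4 comparisons. The libraries of KO and WT did not overlap for 11 members after IFN, 11 after IL4 and 28 untreated, where 9.27%, 5.46% and 14.2% of all genes did not overlap.

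The members nearest to a call were as follows, given as values. Slc39a8 was at 3.41, 3.09 and 3.96 mnTPM in KO against 6.14, 6.24 and 5.02 in WT after IFN (log2 fold change -0.76, SE 0.161, adjusted p = 0.226), with all 3 KO libraries under the WT ones. In untreated cells it was at 9.71, 9.605 and 9.39 against 11.2, 9.67 and 9.44 mnTPM, and the difference of the IFN responses was -0.66, SE 0.212, adjusted p = 0.775. The phosphate carrier Slc20a1 was at 28.9, 20.3 and 26.9 mnTPM in KO against 65.0, 32.7 and 38.7 in WT after IFN (-0.82, SE 0.223, adjusted p = 0.549) and at 27.03, 29.1 and 37.1 against 60.7, 38.9 and 39.1 untreated (-0.56, SE 0.219, adjusted p = 0.552), without overlap in either. Slc29a1 was at 38.5, 35.9 and 53.2 against 59.2, 74.0 and 52.6 mnTPM after IFN (-0.58, SE 0.159, adjusted p = 0.549), where the groups overlapped. The heavy chain Slc3a2 was higher in all KO libraries than in any WT library of the same treatment, with 700.3, 796 and 608 against 512, 524 and 603 mnTPM after IFN, 478, 597 and 442 against 375, 426 and 359.8 after IL4 and 423, 450.0 and 451 against 350.5, 365 and 338 untreated. Its log2 fold changes were 0.37, 0.32 and 0.31, with unadjusted p of 0.0182, 0.0352 and 0.0398 and adjusted p of 0.746, 1 and 0.629. In untreated cells the zinc exporter Slc30a1 was at 6.90, 9.84 and 6.27 mnTPM in KO against 4.52, 3.61 and 3.28 in WT (0.94, SE 0.327, adjusted p = 0.448), and Slc25a17, the peroxisomal member of the mitochondrial family, at 31.9, 31.6 and 36.01 against 39.2, 42.4 and 39.4 (-0.30, SE 0.113, adjusted p = 0.511). Slc37a3 was at 9.73, 9.999 and 10.2 against 7.35, 6.17 and 6.32 mnTPM untreated, a wider gap than its fold of 0.34 from the counts (adjusted p = 0.659). For the responses, the lowest p were those of Slc25a17 for IFN (0.51, SE 0.161, adjusted p = 0.774) and Slc37a3 for IL4 (-0.61, SE 0.222, adjusted p = 0.99998).

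**Figure D5:**
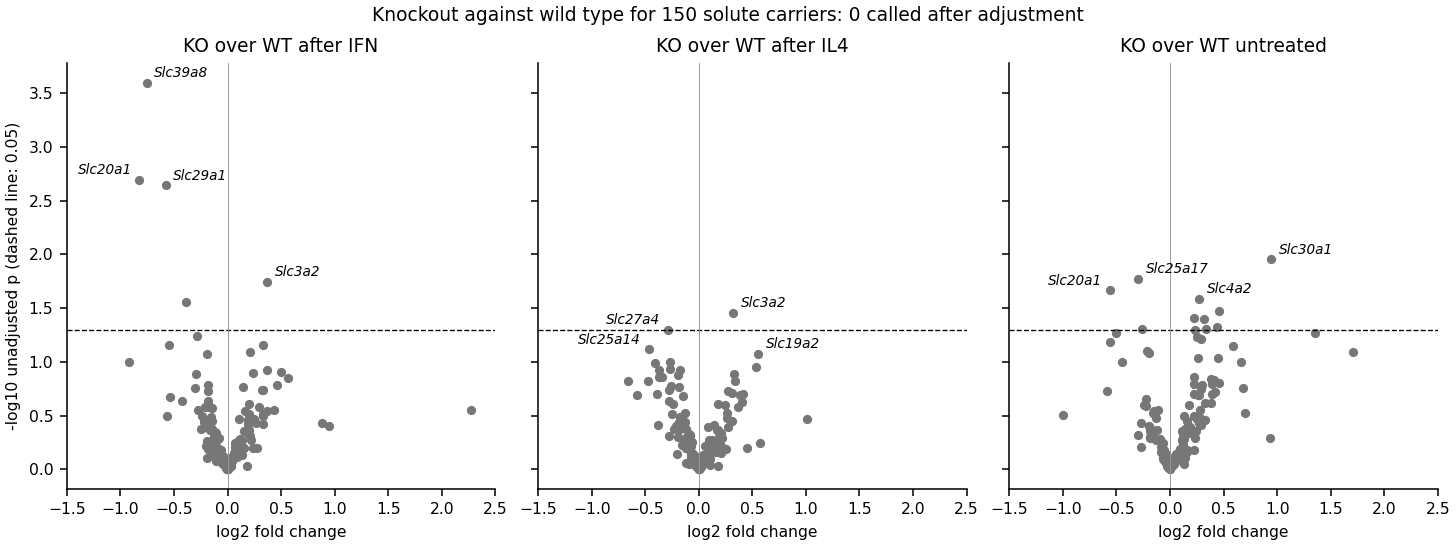
Log2 fold change of KO over WT (x axis) against the negative log10 of the unadjusted p (y axis, dashed line at 0.05) for the 150 members after IFN, after IL4 and untreated, with the 4 lowest p of each panel named. No member was called after adjustment, and Slc39a8 after IFN had the lowest p of the 3 panels.

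Other transport genes, from lists taken from textbook families, gave the following counts. They were chosen with earlier results of these data known, and are read against the shares over all genes tested. After IFN these were 12.6% higher and 8.93% lower in KO, and 11.1% and 7.55% in WT. After IL4 they were 5.33% and 4.11% in KO, and 4.96% and 3.53% in WT. Of 46 carriers outside the symbol pattern 32 were tested, and 7 rose and 3 fell in KO after IFN, 8 and 3 in WT, 2 and 2 in KO after IL4, and 2 and 1 in WT. The 11 carriers set aside by the rule had 3 rises and 2 falls in KO and 4 and 0 in WT after IFN, and 1 and 2 in KO and 3 and 1 in WT after IL4. Of 17 tested subunits of the vacuolar proton pump, which acidifies lysosomes, 3 rose and 3 fell in KO and 1 and 4 in WT after IFN, and 4 rose and 0 fell in each genotype after IL4. Atp6v0d2, a subunit that is also an osteoclast marker, had log2 fold changes of -1.999 in KO and -2.04 in WT after IFN (adjusted p = 0.00116 for both) and of 2.55 and 2.49 after IL4 (adjusted p = 0.000415 and 0.000453). Of 6 tested pumps of the plasma membrane, 2 rose and 2 fell in KO and 2 and 1 in WT after IFN, and 0 and 0 in KO and 1 and 0 in WT after IL4. The sodium pump subunit Atp1b3 rose after IFN by 1.72 in KO and 1.55 in WT on the log2 scale (adjusted p = 0.000594 and 0.00145). Of 21 tested genes of lysosomal amino acid sensing, 3 rose and 3 fell in KO and 3 and 1 in WT after IFN, and 1 and 3 in KO and 2 and 2 in WT after IL4. Of 26 ABC transporters, which use ATP to export lipids and drugs, 0 rose and 10 fell in KO and 0 and 8 in WT after IFN, and 1 rose and 6 fell in KO and 2 and 4 in WT after IL4. Abca5 had log2 fold changes of -0.95 and -1.47 after IFN and -1.61 and -1.67 after IL4 in KO and WT (adjusted p = 0.0269, 0.00446, 0.00275 and 0.00367). No gene of these lists was called between KO and WT in any treatment.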

How the data were processed

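Poly-T purified RNA of 18 macrophage samples was sequenced, and no column of the tables was left without a sample. Per the submitters' processing notes, the authors used Bowtie 0.12.8 and RSEM 1.2.3 on mm10. They deposited expected counts, TPM and a signal made by rescaling each library's TPM to a common median (factors 0.8214 to 1.148). The deposited expected counts, of which 21.5% were not whole (tolerance 1e-06), were rounded. edgeR 4.0.16 in R 4.3.3 (filterByExpr, TMM, robust quasi-likelihood, 1 coefficient a group, all 18 libraries) tested 12514 genes, with a biological coefficient of variation of 0.302, and the procedure was tested on simulated data. Adjusted p-values are Benjamini-Hochberg over all genes within a comparison. Alternatives used DESeq2 1.42.0, limma 3.58.1, other filters and scales, libraries left out and a covariate for Y-linked transcripts, the last and the rescaled TPM being chosen after seeing the data. Tables and plots were made with Python 3.11.15, pandas 2.3.3 and matplotlib 3.10.9.

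The members and lists were chosen with earlier results of these data known. Members described were called ones without overlap (up to 10 rises and 10 falls a comparison), the 3 highest of each class, a preset list, and, where under 3 were called, the 3 lowest p. The others were named after their values were seen. Same-numbered KO and WT libraries deviated together after IL4 (correlations over 9712 genes of 0.702, 0.561 and 0.475). They did not in every pair after IFN (0.371, 0.036 and 0.265) or untreated (0.746, 0.072 and 0.573). The p-values given use no pairing in any treatment, IL4 included. A block for the number was an alternative fit for the genotype comparisons of all treatments. The most similar libraries of a group, WT untreated 2 and 3, still differed by more than counting noise (chi-square per degree of freedom 5.92) and were kept apart. They were far closer than the next pair, WT IL4 8 and 9 (49.1), and the labels do not say whether they share a source. Comparisons with untreated WT may thus rest on fewer independent libraries than 3. With the 2 summed into 1 library, 126 of 132 results for named members were the same and 6 were no longer called. Positions are those of GENCODE vM21 on GRCm38. Some genes and motifs are not reported here.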

Additional observations from a re-analysis of the deposited data

How the results depend on the processing

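Over 132 results for named members and 3711 recomputed values, 3480 kept their direction and side of the threshold, 230 were no longer called, 1 became called and 0 reversed, under every scaling tried. These values include fits that left out a library of neither group compared, where little could change. They also include genotype results that were not called to begin with, so the total is no measure of stability. Without libraries 3, 6 and 9, 92 of the 132 results were the same and 40 were no longer called. The count of called members was 71 (16 higher, 55 lower) for IFN in KO with limma on log2(TPM + 0.1), where the median of all genes moved by -0.35, and 10 for IL4 in KO when only the groups compared were fitted. DESeq2 called 1 member in KO over WT after IFN. Without libraries 3, 6 and 9 the counts were 29 for IFN in KO, 22 for IFN in WT, 9 for IL4 in KO, 8 for IL4 in WT and 20 for IFN over IL4 in WT. The cause was not tested, beyond the smaller number of libraries in these fits. Leaving out single libraries gave 38 to 49 for IFN in KO, 31 to 42 for IFN in WT, 15 to 28 for IL4 in KO, 14 to 23 for IL4 in WT, 32 to 45 for IFN over IL4 in KO and 32 to 43 in WT, and 0 to 0 for the genotypes and the differences of responses. A replicate block called 0 members in KO over WT in each treatment and in both differences of responses, and changed no call there. With 3 libraries a group and a biological coefficient of variation of 0.302, a member that was not called may still differ. The origin of the libraries of a group is not given in the sources used here.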
